A study of Mus musculus with 6 samples.

Results

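DNA methylation was examined in windows nearest to 5 regulators of blood stem cell self-renewal, Meis1, Hlf, Prdm16, Etv6 and Hmga2. The members were chosen from the differences themselves. A window belonged to the set if one of the authors' 3 deposited tables of methylation differences gave 1 of these genes as its nearest gene, and each window was counted once. This gave 10 windows in 6 separate loci, of 2135 windows near 1223 genes in all. Since being listed is what chose them, their counts, directions and sizes are a description and carry no test.

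The cells were bone marrow cells of C57BL6 mice, immortalised with HoxA9, then transduced and transplanted into irradiated recipients. The IDH1mut group carried pSF91-IDH1mut-IRES-GFP, with the R132C mutation named in the deposited table (2 libraries). The R-2HG group, titled CTL R-2HG, carried an empty vector, and its recipients received 1 mg of R-2HG daily over 4 weeks (2 libraries). The IDH1wt group carried pSF91-IDH1wt-IRES-EGFP (2 libraries). All 3 groups share the HoxA9 background, and GFP-positive cells were sorted from marrow after 4 weeks. The labels give neither ages nor the number of mice, and do not say if replicate libraries are from different animals. The R-2HG and IDH1wt groups differ both by vector and by metabolite, and no empty-vector group without R-2HG was analysed here. The R-2HG and IDH1mut groups also differ both by vector and by the R-2HG given to the recipients, and these cannot be told apart. Methylation does not show which cells were sorted, so the cell type could not be checked against expressed markers.

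HoxA9 binds DNA together with Meis1, a TALE homeodomain protein, and the pair keeps myeloid progenitors dividing without maturing. Hlf, Prdm16 and Etv6 are transcription factors needed by, or marking, long-lived blood stem cells, and Hmga2 is a chromatin protein of fetal stem cells. Mutant IDH1 makes R-2-hydroxyglutarate (R-2HG), a competitor of 2-oxoglutarate at the TET enzymes that oxidise 5-methylcytosine.

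Reduced representation bisulfite sequencing (RRBS) reads CpGs in short fragments that the enzyme MspI cuts out at CCGG, so cut sites decide which DNA can be seen. No listed window lay in the promoter of any of the 5 genes, taken as 2000 bp before to 500 bp after the start site. Of all listed windows, 18.1% did so for IDH1mut against IDH1wt, 13.3% for R-2HG against IDH1wt and 19.1% for R-2HG against IDH1mut. The 250 bases before the start are shown for Meis1, which had most windows, and for Prdm16, whose windows lay nearest to a start. They are also shown for Hmga2, where these 250 bases held no cut site. The bases shown cover only part of the promoter defined above, and the rest was not searched. They are RefSeq sequences of another build than the mm9 of the tables, with MspI sites in capitals, and their starts need not be those the authors used.
Meis1 (GRCm38.p6, chr11:19018970-19019219, minus strand): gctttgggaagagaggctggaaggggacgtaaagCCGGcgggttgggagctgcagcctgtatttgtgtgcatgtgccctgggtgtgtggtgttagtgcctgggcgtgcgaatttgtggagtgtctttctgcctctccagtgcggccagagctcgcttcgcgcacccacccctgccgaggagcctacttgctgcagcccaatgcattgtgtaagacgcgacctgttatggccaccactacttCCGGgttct
Prdm16 (GRCm38.p6, chr4:154636874-154637123, minus strand): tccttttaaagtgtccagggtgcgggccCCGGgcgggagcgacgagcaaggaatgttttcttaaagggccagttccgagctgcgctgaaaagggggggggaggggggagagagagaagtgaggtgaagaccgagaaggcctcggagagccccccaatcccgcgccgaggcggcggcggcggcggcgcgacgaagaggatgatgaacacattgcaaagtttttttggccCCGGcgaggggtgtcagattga
Hmga2 (GRCm38.p6, chr10:120476470-120476719, minus strand): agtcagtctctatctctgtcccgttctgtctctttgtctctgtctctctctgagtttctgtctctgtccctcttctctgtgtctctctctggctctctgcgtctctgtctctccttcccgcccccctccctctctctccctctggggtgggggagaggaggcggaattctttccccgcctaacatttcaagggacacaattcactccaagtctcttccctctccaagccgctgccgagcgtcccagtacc

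CCGG was present in 47.1% of the 32851 RefSeq promoters of this length. It reads the same on both strands. All 5 genes matched that table. The upstream stretches of Meis1 and Prdm16 held 2 sites each, those of Etv6 and Hlf held 1 each and that of Hmga2 held 0. The CpG count was 13 for Meis1, 22 for Prdm16, 16 for Etv6, 26 for Hlf and 8 for Hmga2, against a median of 6 over all promoters. Whether these promoters were covered by reads is not known from tables that list differences only, so a promoter that is not listed cannot be called unchanged.

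The values are the authors' differences in percentage points of methylation between 2 groups, each from 2 libraries a group, with no value per library and no error. Windows are 500 bp long and start 250 bp apart, so neighbours share CpGs and are not separate observations. The tables hold differences of at least 25 points in either direction, with a q (the authors' adjusted p) of at most 0.00995. Positive values are read as gains in the group named first. The data fix this only up to a reversal of all signs at once, under which every gain below is a loss. A window may be missing from a table for its size, its q or its coverage. How the authors tested a window is not stated, so it is unknown if q covers the spread between replicate libraries.

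Against IDH1wt, IDH1mut cells differed near 4 of the 5 genes, with gains at Etv6 and Prdm16, losses at Hlf and both directions at Meis1. Of the 1223 genes listed in any table, 72.0% were listed in that comparison, 37.0% for R-2HG against IDH1wt and 30.2% for R-2HG against IDH1mut. Of the 8 windows, 5 were gains, where 69.3% of all 1493 listed windows were gains. Their median difference was 34.0 points, against 27.5 points over all listed windows. Joined by place, the 8 windows formed 5 clusters, 3 of them gains. The median thus counts overlapping Meis1 windows more than once and does not show larger gains near the members. R-2HG cells differed from IDH1wt near 3 of the genes, Prdm16, Etv6 and Hmga2, with 4 gains in 4 windows, where 68.0% of 750 listed windows were gains. The median was 26.9 points for these 4 and 26.9 points over all. R-2HG cells differed directly from IDH1mut cells only near Meis1 among the 5 genes, with 2 losses in 2 windows, where 64.5% of 603 listed windows were losses. The member median was -25.5 points and that of all listed windows -26.8 points.

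**Figure D1:**
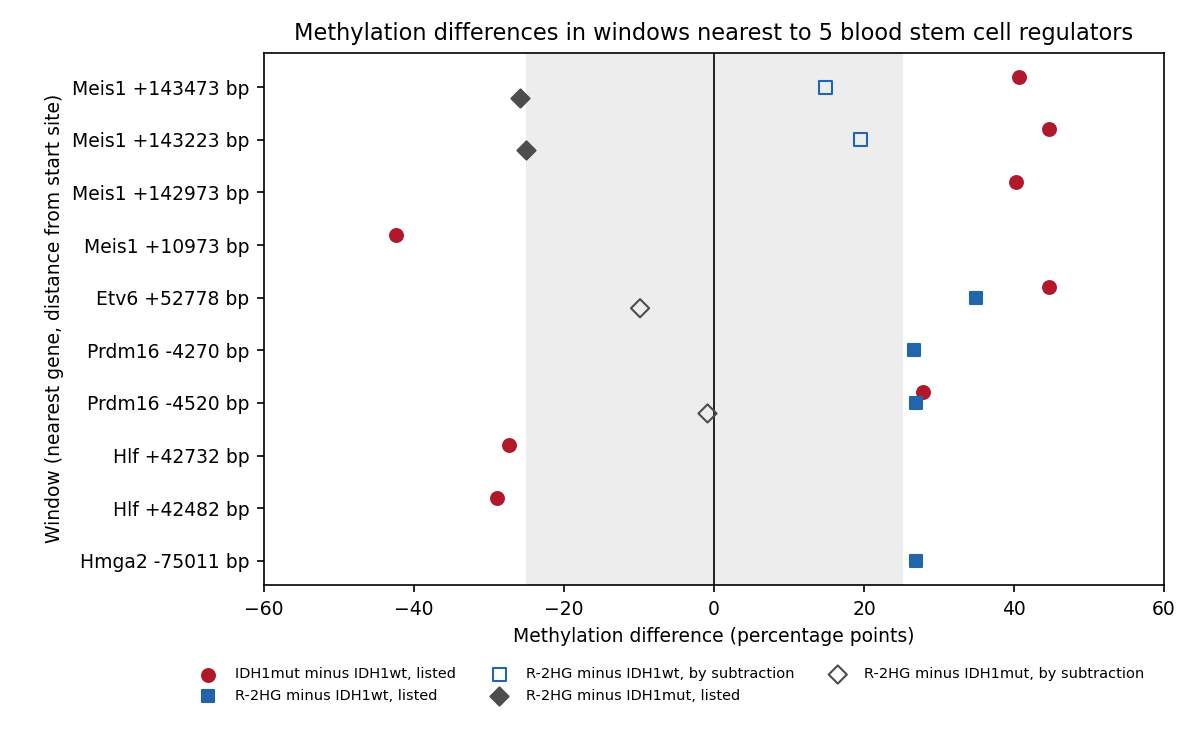
Methylation difference in percentage points (x axis) for the 10 windows, named by nearest gene and distance from its start site (y axis). Filled points are the authors' listed values, open points come from subtraction, and the grey band marks differences under 25 points. Meis1 has IDH1mut values of 40.3 to 44.6 points far downstream and -42.4 points near the start, and Etv6 has high values in both IDH1mut and R-2HG.

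Meis1 had the most windows of the set, and its differences ran in opposite directions at 2 places on chromosome 11. Far downstream of the start site, IDH1mut cells were higher than IDH1wt cells over 3 overlapping windows (mm9, 18775001 to 18776000). In the authors' deposited table the gains were 40.7 points at 143473 bp, 44.6 points at 143223 bp and 40.3 points at 142973 bp, each with q = 0. The middle value was large within its table, as 9.18% of the 1035 gains for IDH1mut were at least as large. Nearer the start, at 10973 bp downstream (18907501 to 18908000), IDH1mut cells were lower by a difference of -42.4 points with q = 6.9e-14 in the authors' deposited table. Only 6.33% of the 458 losses were at least as large in size. The loss and the nearest gain lay 132000 bp apart. Of the 472 genes with 2 or more windows for IDH1mut, 23, or 4.87%, had both directions, and 35 of 881 genes, or 3.97%, had 4 or more windows. The 472 genes include those whose windows all overlap and so share CpGs, as the Hlf windows do. The share with both directions among genes with windows at separate places, as at Meis1, was not computed. The 4.87% therefore does not show how rare the Meis1 pattern is.

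R-2HG cells had lower methylation than IDH1mut cells in 2 of the 3 distal Meis1 windows. The differences were -25.9 points at 143473 bp and -25.1 points at 143223 bp, both with q = 0 in the authors' deposited table. They lie just inside the limit of 25 points, and 89.2% and 99.0% of the 389 losses in that comparison were at least as large. Subtraction places R-2HG above IDH1wt by 14.9 and 19.5 points there, under the limit, and neither window is listed for R-2HG against IDH1wt. IDH1mut was thus highest, R-2HG between and IDH1wt lowest at both windows, with no replicate error for that order. At the third distal window and at the loss near the start, R-2HG was not listed against either group.

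**Figure D2:**
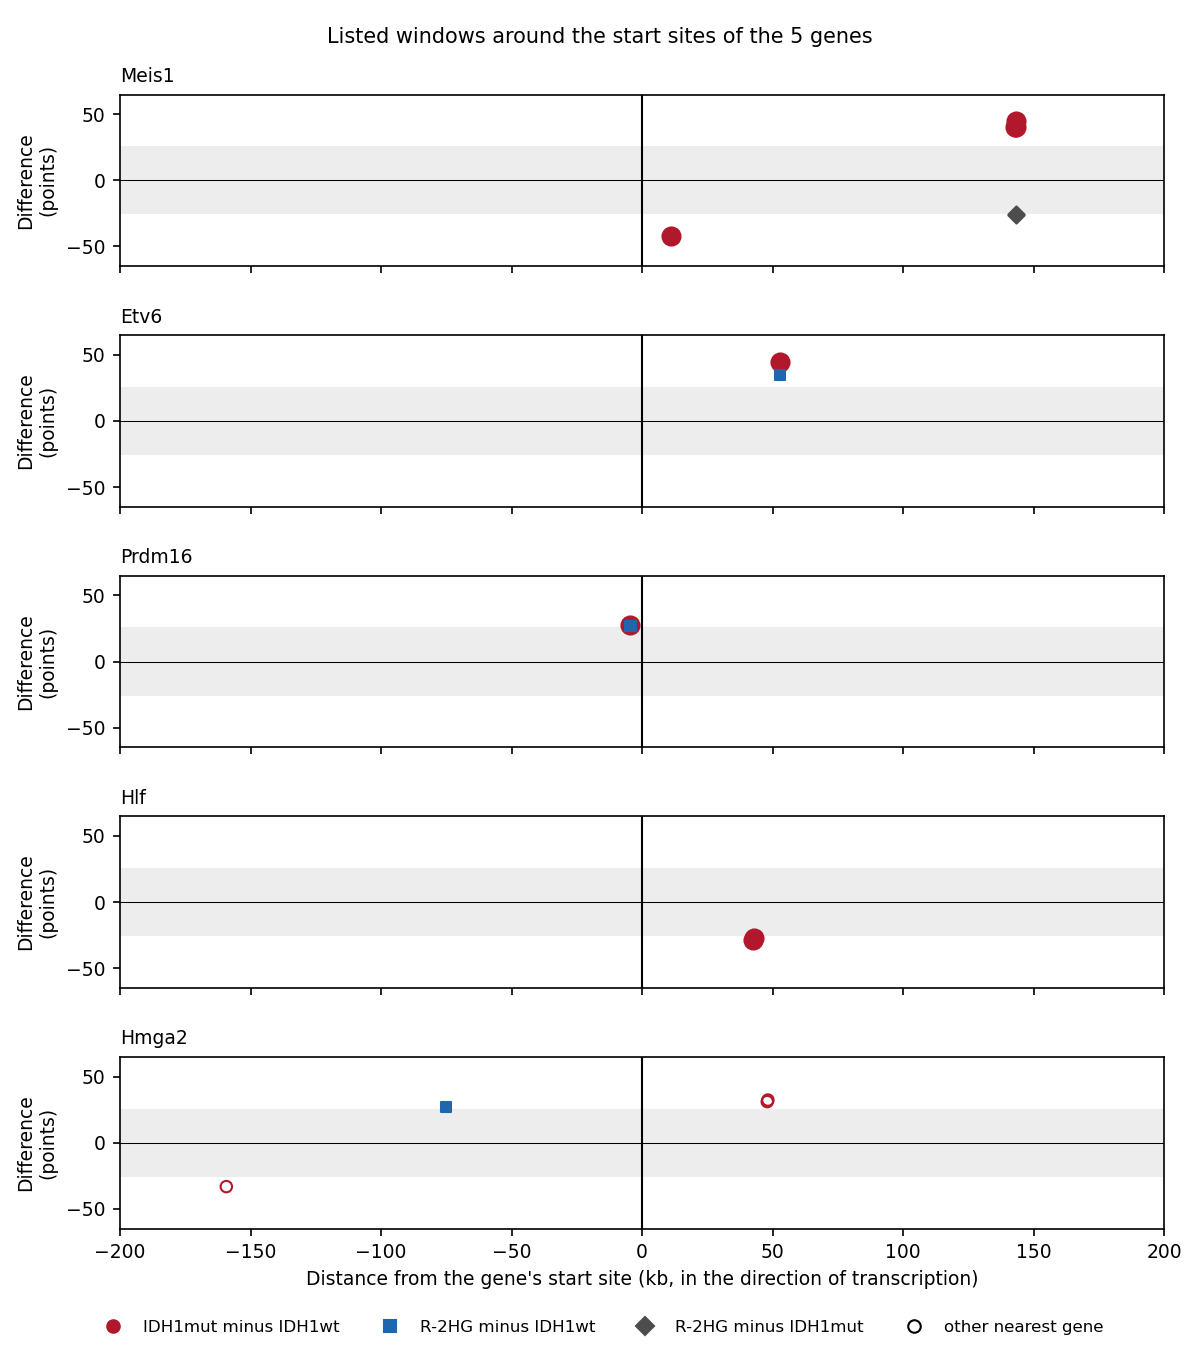
Listed differences in percentage points (y axis) within 200 kb of each gene's start site (x axis, in kb, positive in the direction of transcription), with 1 panel a gene. Filled symbols are windows nearest to that gene, open symbols windows that the files give to another gene, and the grey band marks differences under 25 points. Meis1 shows a loss near the start and gains far downstream, and Hmga2 has windows of other nearest genes on both sides.

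Hlf encodes a PAR bZIP factor known as a marker of blood stem cells and for keeping them quiescent, and it was the other gene with losses. IDH1mut cells were lower than IDH1wt cells in 2 overlapping windows on chromosome 11 (90209001 to 90209750). The authors' deposited table gives -27.3 points at 42732 bp and -28.9 points at 42482 bp downstream of the Hlf start site, both with q = 0. These were ordinary sizes for that table, as 67.7% and 50.7% of its losses were at least as large. Neither Hlf window was listed for R-2HG.

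Prdm16 encodes a zinc finger protein of the PR domain family that supports stem cell maintenance, and its windows were the closest to a start site. Both groups gained there relative to IDH1wt. At 4520 bp upstream (chromosome 4, 154015501 to 154016000) the gain was 27.8 points in IDH1mut and 26.9 points in R-2HG in the authors' deposited tables of these comparisons, both with q = 0. The R-2HG minus IDH1mut difference by subtraction was -0.865 points. The overlapping window at 4270 bp upstream was listed for R-2HG alone, with 26.6 points in the authors' deposited table. At Prdm16, 69.9% of IDH1mut gains and 72.9% of R-2HG gains were at least as large as those of the shared window.

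Etv6 encodes an ETS family repressor required for blood stem cells to persist in adult marrow. Its single window, 52778 bp downstream of the start site (chromosome 6, 134038501 to 134039000), was higher in both groups than in IDH1wt. The gain was 44.7 points in IDH1mut, with q = 1.4e-10, and 34.9 points in R-2HG, with q = 3.0e-08, in the authors' deposited tables. Of the gains for IDH1mut 8.99% were at least as large, and of those for R-2HG 26.1%. Subtraction gave R-2HG minus IDH1mut as -9.86 points at Etv6, which is under the limit of 25 points. The 2 comparisons use the same IDH1wt libraries, so the like direction at Etv6 and Prdm16 rests partly on shared data and is not counted as support.

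**Figure D3:**
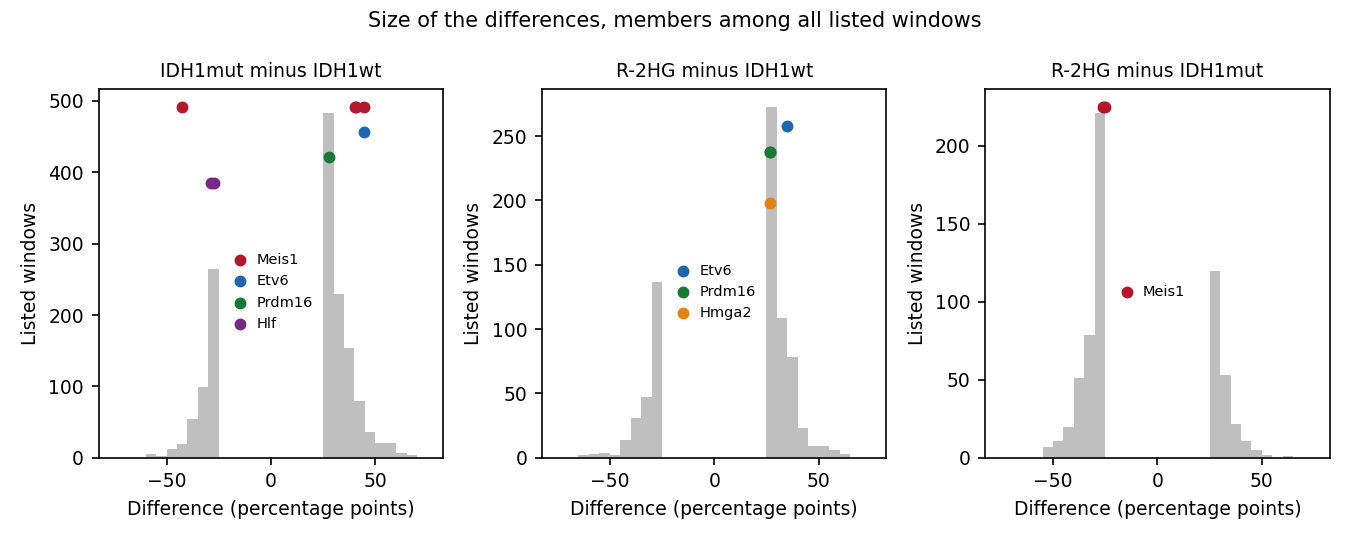
Histograms of all listed differences in percentage points (x axis, 5-point bins) with the number of windows (y axis), 1 panel a comparison. Coloured points mark the windows of each gene, at a height that carries no value. The IDH1mut values of Meis1 and Etv6 lie in the tails, from 40.3 to 44.7 points and at -42.4 points, while those of Prdm16 and Hlf, and the R-2HG value of Hmga2, lie in the bins next to the empty middle.

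Hmga2 encodes an architectural chromatin protein that sustains self-renewal of fetal and young stem cells and that let-7 microRNAs repress. R-2HG cells were higher than IDH1wt cells in 1 window 75011 bp upstream of its start site (chromosome 10, 119989001 to 119989500). The difference was 26.9 points with q = 2.0e-09 in the authors' deposited table, and 73.9% of R-2HG gains were at least as large. IDH1mut was not listed under the name Hmga2, but it was listed close by. Windows whose nearest start in the files is that of the microRNA gene Mir763 lay 48240 and 47990 bp downstream of the Hmga2 start, counted from the start site that the file's own distances imply. There IDH1mut minus IDH1wt was 32.2 and 31.0 points (q = 0 for both, authors' deposited table). On the other side, 159261 bp upstream of the Hmga2 start, a window nearest to 4921513I03Rik was lower in IDH1mut than in IDH1wt, with -33.3 points and q = 0 in the authors' deposited table. In the RefSeq annotation of GRCm38.p6, Mir763 lies within Hmga2. These 3 windows fall outside the rule, and the count of members listed for IDH1mut rests on that nearest-start naming. Within 200 kb of the start sites of Meis1, Etv6, Prdm16 and Hlf, 0 listed windows had another nearest gene, against 3 around Hmga2.

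Of the 10 windows, 4 were listed in 2 tables, 6 in 1 table and 0 in all 3, where 33.0%, 66.8% and 0.141% of all 2135 windows were. A window listed once does not show that 1 group alone changed. If a window was covered in all groups and was missing elsewhere for its size alone, the missing difference has bounds set by the limit of 25 points. At the Meis1 loss, R-2HG minus IDH1wt would then lie between -25 and -17.4 points, and at the third distal Meis1 window between 15.3 and 25 points. At the Hlf windows it would lie between -25 and -2.26 and between -25 and -3.90 points. IDH1mut minus IDH1wt would lie between 1.59 and 25 points at the Prdm16 window listed for R-2HG alone, and between 1.89 and 25 points at Hmga2. These signs follow from the arithmetic of the limit and are not measurements.

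Distances from the start site spanned 4270 to 143473 bp in size. Windows over 50 kb from a start made up 4 of the 8 for IDH1mut (3 at Meis1 and 1 at Etv6), against 31.1% of all its listed windows. They made up 2 of the 4 for R-2HG against IDH1wt, at Etv6 and Hmga2, against 31.2%. For R-2HG against IDH1mut both Meis1 windows lay that far, against 24.4%. They are among the 3 Meis1 windows counted for IDH1mut, which overlap at 1 place and are not separate observations. At such distances a gene's name says which start site is nearest and not which gene the window acts on. No mm9 annotation was used here, so whether a window is exonic or intronic is not given.

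**Figure D4:**
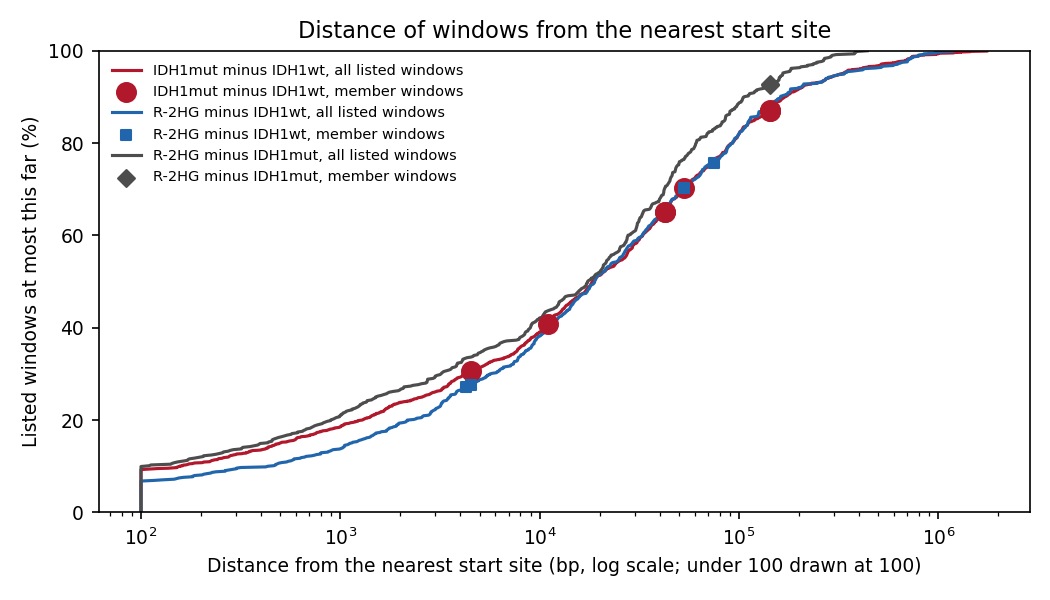
Percentage of listed windows (y axis) at most a given distance from the nearest start site (x axis, bp, log scale), with 1 line a comparison, and the member windows as symbols on the lines. The member windows run from 4270 bp at Prdm16 to 143473 bp at Meis1, and none lies on the part of the lines under 2000 bp.

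Of 36 other regulators of blood stem and progenitor cells, 5 had windows for IDH1mut, all gains, and 0 for R-2HG against IDH1wt, and this difference was not tested. The tables hold 881 and 452 genes, and 66.1% and 64.4% of them had gains alone. For R-2HG against IDH1mut 3 of the 36 were listed, all losses, in a table of 369 genes of which 63.4% had losses alone. Bmi1, a Polycomb protein needed for self-renewal, had 41.8 to 53.7 points for IDH1mut in 3 windows and -44.8 to -31.4 points for R-2HG minus IDH1mut in the authors' deposited tables. Gata2, a factor of stem and progenitor cells, had 41.6 points for IDH1mut and -27.2 points for R-2HG minus IDH1mut in the authors' deposited tables. Its window lay 46158 bp upstream. Gata3, Hoxb4 and Zfpm1 were the other 3 gains for IDH1mut. The negative sign of R-2HG minus IDH1mut at these windows is no separate finding. A window with gains in both of these comparisons would have at least 50 points for R-2HG minus IDH1wt and pass the size limit there too. None of these windows was listed there, and the sign follows only once that absence is taken as given.

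Partners and targets of HoxA9 and Meis1 were a list of 18 genes. For IDH1mut 1 was listed, Hoxa5, with gains of 30.8 to 35.5 points in the authors' deposited table. For R-2HG against IDH1wt 2 were, Hoxa5 with 26.8 points and Hoxa6 with 35.2 and 35.5 points, values of the authors' deposited table. For R-2HG against IDH1mut 1 was, Hoxa10, higher by 28.6 points. Hoxa9 itself was not listed in any table. Of 24 paralogues of the 5 genes, 2 were listed for IDH1mut, 2 for R-2HG against IDH1wt and 1 for R-2HG against IDH1mut, all as gains. Genes with gains alone made up 66.1%, 64.4% and 35.2% of all genes in these tables. Meis2, the closest relative of Meis1, had 28.3 points at 48608 bp and Etv4 31.4 points at 1125 bp for IDH1mut in the authors' deposited table. Prdm8 had 25.4 points in 2 windows for R-2HG in the authors' deposited table. Prdm6 had 27.2 points for R-2HG minus IDH1wt. For R-2HG minus IDH1mut it had 41.3 to 43.7 points in 2 windows, the largest differences among the paralogues (authors' deposited tables).

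Among 27 lymphoid, erythroid and stromal genes, 1 was listed for IDH1mut (Col1a1, 25.2 points) and 1 for R-2HG against IDH1wt (Ebf1, 41.6 points) in the authors' deposited tables. For R-2HG against IDH1mut 2 were listed, Col1a1 with up to 33.9 points and Lepr with 27.6 points in the authors' deposited table. All of these were gains. Genes with gains alone made up 66.1%, 64.4% and 35.2% of the 881, 452 and 369 genes listed in the 3 comparisons. Whether this list departs from those shares was not tested.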

How the data were processed

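RRBS was done on 6 libraries in 3 groups of 2. The submitters' processing notes name Trim Galore, BSMAP, methylKit 0.9.1 and mm9. Filters, coverage and test: not given in the sources used here. Per the file headers, the deposited tables give each window a p-value, a q-value and a methylation difference. The authors deposited this difference as a signed score in percentage points. Depth is unknown, and no interval that needs it is given. The deposited p-value was 0 in 6 of 8, 2 of 4 and 2 of 2 member windows, and in 70.9%, 68.7% and 81.9% of all windows.

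With Python 3.11.15 and pandas 2.3.3, repeated windows were counted once, windows within 1000 bp joined, and the remaining difference at windows listed in 2 tables obtained by subtraction. At 3 windows listed in every table the differences add up in 1 of 4 sign orders (largest residual 0), which turns the table of IDH1wt with R-2HG. The sign order, start site and joining steps were tested on simulated data. That simulation held far more windows listed in every comparison than these 3. The subtraction and the bounds were not simulated. No fit or test between groups was run. The members and the 4 lists of 105 genes were chosen with earlier results of these data known. All windows of the 5 genes are named, list genes with a window may be, and other genes within 1 Mb may be. Some listed genes are not named here.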

Additional observations from a re-analysis of the deposited data

Results flagged for a closer look

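At 2 distal Meis1 windows the authors' direct comparison lists a difference between R-2HG and IDH1mut. Its sign is opposite to the IDH1mut gain. That follows from the size limit once absence from R-2HG against IDH1wt is taken as given. The sign is shared with other genes, so it does not set Meis1 apart. The R-2HG minus IDH1mut differences were -25.9 points at 143473 bp and -25.1 points at 143223 bp from the Meis1 start site in the authors' deposited table. Both values sit at the limit of 25 points, and neither is left with a limit of 30 points. No value per library was analysed, so their spread between replicates is not known.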

How the results depend on the processing

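Requiring at least 30 points left 5 of the 8 member windows for IDH1mut against IDH1wt, 1 of 4 for R-2HG against IDH1wt (a gain, at Etv6) and 0 of 2 for R-2HG against IDH1mut. Keeping windows within 50 kb of the start left 4 windows with 1 gain, 2 windows with 2 gains and 0 windows in these comparisons. Joining windows gave 5 clusters with 3 gains for IDH1mut and 1 cluster for R-2HG against IDH1mut. Under the opposite sign reading the numbers of gains were 3, 0 and 2 in place of 5, 4 and 0. The other 18 values stayed within 1.5 times of the reported ones, including all those with a q of at most 1e-04 or with every row counted. The q setting could remove no member window, as the largest q among them was 3.0e-08. The 0 gains for R-2HG against IDH1mut could not change by filtering, joining or counting repeats. These values were fixed in advance and do not show stability. No paired analysis was possible because the tables hold no value per library, and leaving out a replicate was not run for the same reason. Unknown depth, no replicate error, unlisted windows and naming by the nearest start limit every value.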

Other observations

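Within 1 Mb of the members, some other genes had larger or opposite differences. Ski, a corepressor gene upstream of Prdm16 by 577770 and 578020 bp, had -33.8 and -42.0 points for IDH1mut and -26.5 and -32.4 points for R-2HG in the authors' deposited tables. Prdm16 gained in the same comparisons. Nearer, 202520 bp upstream of Prdm16, a Ttc34 window also gained, by 25.9 points for R-2HG minus IDH1wt. A BC039966 window 774981 bp downstream of Prdm16 had -27.2 points in that comparison. Tbc1d30, 817261 bp upstream of Hmga2, had 29.5 points for IDH1mut and 26.6 points for R-2HG (authors' deposited values). Mansc1, downstream of Etv6, had 46.2 to 51.4 points for IDH1mut minus IDH1wt and -46.8 to -40.0 points for R-2HG minus IDH1mut over its start (authors' deposited tables). Mansc1 was not listed for R-2HG against IDH1wt, unlike Etv6. The pseudogene Hmga2-ps1 on chromosome 1 had 62.6 points for IDH1mut and 37.9 points for R-2HG in 2 windows at its start in the authors' deposited tables. Its 2 windows overlap and had the same value in each comparison, so they are not separate observations. A pseudogene can share reads with near-identical copies, and whether this locus did was not tested, so it is uncertain.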
